A study of Mus musculus with 4 samples.

Results

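*Sp8*, *Meis2*, *Tshz1*, *Pbx3*, *Etv1*, *Calb2*, *Th*, *Prokr2* and *Pax6*, genes of the fate and migration of olfactory bulb interneurons, were followed in tdTomato-positive cells sorted from the mouse telencephalon. They were taken by symbol and made up 9 of the 32285 genes counted. Their levels were described in cells with at least 3 UMIs (unique molecular identifiers, each a tag for 1 captured transcript molecule) summed over *Dlx1*, *Dlx2*, *Dlx5* and *Gad2*, here called gated cells, and in all other cells. *Dlx1*, *Dlx2* and *Dlx5* encode transcription factors of the ventral forebrain and *Gad2* encodes an enzyme that makes the transmitter GABA. Of 17623 cells that passed the filters, 3952 were gated and 13671 were not.

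Single-cell RNA sequencing had been done on 4 libraries from C57BL/6 mice at postnatal day 5, with 2 libraries of control mice (NestinCreERT2/tdTomato/Chd8+/+) and 2 of mutant mice (NestinCreERT2/tdTomato/Chd8+/F). Mice of both genotypes carried the *Nestin*-driven, tamoxifen-inducible Cre and the tdTomato reporter, and all had been exposed to tamoxifen in midfetal life. Tamoxifen therefore switched on tdTomato in *Nestin*-expressing neural progenitors and their progeny in both genotypes, and in the mutants it also deleted the floxed part of 1 *Chd8* allele, a gene for a chromatin remodeler. Each library pooled cells of several mice, so that the spread between single mice was not seen, and the olfactory bulb and thalamus were left out of the dissection, so that the cells of this lineage examined here were those outside the bulb. The counts are 3′ tags given per gene and not per exon, and do not check the deletion (*Chd8* in gated cells, log2 mutant over control 0.19, SE 0.320).

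Interneurons of the olfactory bulb are born in the lateral ganglionic eminence of the embryo and in the subventricular zone after birth. Their neuroblasts keep dividing for a time, move along the rostral migratory stream to the bulb, and mature there into granule and periglomerular cells. *Sp8*, *Meis2*, *Tshz1*, *Pbx3*, *Etv1* and *Pax6* encode transcription factors of this lineage. *Prokr2* encodes the receptor for prokineticin 2, a guidance cue for these neuroblasts. *Calb2* encodes calretinin, a calcium-binding protein, and *Th* encodes tyrosine hydroxylase, the rate-limiting enzyme of dopamine synthesis, and both mark mature periglomerular cell classes. *Meis2*, *Tshz1* and *Pbx3* are also used by striatal neurons, *Etv1* by other neurons and glia, *Calb2* by other neurons, and *Pax6* by dorsal progenitors and astrocytes.

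In the mm10 assembly, *Pbx3* lay at chr2:34171457-34373142, *Pax6* at chr2:105668900-105697364, *Meis2* at chr2:115863064-116065839 and *Prokr2* at chr2:132337733-132385447. *Th* lay at chr7:142892752-142931128, *Calb2* at chr8:110137502-110168210, *Etv1* at chr12:38779380-38870484 and *Sp8* at chr12:118846329-118852576. None of the 9 genes overlapped another annotated gene on its own strand. Intronic sequence, which bears on a comparison below, ran from 1690 bases in *Sp8* to 195577 bases in *Pbx3*.

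The promoters of *Sp8*, *Prokr2* and *Pax6* are shown because these genes gave the most different patterns in the data below. *Sp8* was counted in dividing and non-dividing gated cells, *Prokr2* was far higher in non-dividing ones, and *Pax6* was highest in dividing clusters. Each sequence is the 250 bases upstream of a RefSeq transcription start (assembly GRCm38.p6), 5′ to 3′ on the strand of the gene, with capitals for matches on either strand to TAATTA (a homeodomain core), TGACAG (a Meis core), TGATTGAT (a Pbx core), CAGCTG (an E-box) or GGGCGG (a GC box).
*Sp8*, chr12:118846079-118846328, plus strand: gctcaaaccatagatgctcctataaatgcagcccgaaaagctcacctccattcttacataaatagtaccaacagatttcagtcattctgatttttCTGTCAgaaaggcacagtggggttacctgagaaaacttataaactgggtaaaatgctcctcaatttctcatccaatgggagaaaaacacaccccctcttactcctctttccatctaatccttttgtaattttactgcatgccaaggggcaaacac
*Prokr2*, chr2:132385448-132385697, minus strand: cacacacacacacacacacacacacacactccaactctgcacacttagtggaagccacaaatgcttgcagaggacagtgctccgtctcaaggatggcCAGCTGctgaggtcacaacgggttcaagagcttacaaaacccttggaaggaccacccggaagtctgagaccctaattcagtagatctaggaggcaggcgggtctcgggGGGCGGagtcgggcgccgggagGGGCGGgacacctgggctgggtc
*Pax6*, chr2:105668646-105668895, plus strand: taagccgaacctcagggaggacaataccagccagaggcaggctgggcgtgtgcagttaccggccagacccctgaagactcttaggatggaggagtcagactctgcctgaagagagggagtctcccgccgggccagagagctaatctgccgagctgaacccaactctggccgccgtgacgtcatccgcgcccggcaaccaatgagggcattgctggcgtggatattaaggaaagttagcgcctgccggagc
The *Sp8* window held 1 TGACAG match, on the opposite strand, at 155 bases before the start. The *Prokr2* window held CAGCTG at 153 bases and GGGCGG at 45 and 23 bases before the start, and the *Pax6* window held no match. TGACAG was found in 15.9%, CAGCTG in 13%, GGGCGG in 32.7%, TAATTA in 4.84% and TGATTGAT in 0.670% of the 32851 promoter windows of this length. RefSeq promoters were matched for 6 of the 9 genes, in 10 windows. Among the windows not printed, other starts of *Sp8* held GGGCGG and TAATTA, another start of *Pax6* held TGACAG, *Th* held GGGCGG, and the *Meis2* and *Etv1* windows held none of the motifs. These are matches of letters and were not tested as binding sites.

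The gate took 29.8% of the cells of control replicate 1, 13.5% of control replicate 2, 26.7% of mutant replicate 1 and 10.4% of mutant replicate 2. The mean share was 3.09 percentage points lower in the mutants (two-sided exact permutation test over libraries, p = 0.667, where the smallest p that 2 against 2 libraries allow is 0.333). The libraries held 46274374 to 79328841 UMIs over 6107 to 7279 barcodes, the median gated cell held 6513.5 to 8363 UMIs and the median other cell 12075 to 12954. Libraries shared 2 to 15 barcodes of kept cells. Clusters built without the 9 genes placed 69.2% of gated cells in inhibitory neuron-like and 18.0% in dividing inhibitory neuron-like clusters, and 4.40% in astrocyte-like ones. Those clusters were named from a marker list that holds the 4 gate genes. All 9 inhibitory neuron markers were higher in gated cells, which for the 4 gate genes among them restates the gate, and they summed to 3004 to 3558 CPM (counts per 1e6 UMIs of those cells in a library) there, gate genes included, against 54.6 to 74.3 CPM in other cells. The 8 astrocyte markers were all lower but not absent, at 1060 to 2222 CPM against 4709 to 5460 CPM.

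The libraries numbered 2 stood apart from those numbered 1 in both genotypes. Their file headers name Cell Ranger 5.0.1, against 7.0.0 for the libraries numbered 1, and *Xist*, expressed from the inactive X chromosome of females, stood at 1633 and 1749 CPM against 0.149 and 0.153 CPM, although the study states male mice. More barcodes exceeded 10% mitochondrial counts in them (44.0% and 37.8% against 9.38% and 12.3%). Most results are therefore given per library or within each replicate number, and some descriptive values are pooled over libraries. What each of these differences contributes to a level was not tested.

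Gated cells were compared with the other cells of the same libraries to ask how far each gene sets the inhibitory lineage apart. *Sp8* and *Prokr2* were close to restricted to gated cells, *Pbx3*, *Meis2*, *Etv1* and *Tshz1* were several times higher there but were counted in other cells too, *Pax6* was higher by a smaller step, and *Calb2* did not pass the test. Of the 8 genes other than *Th*, 7 were called higher and 0 lower (edgeR quasi-likelihood test on counts summed per library, adjusted p under 0.05), where 31.2% of all 18733 genes tested were called higher and 36.7% lower. *Th*, with few counts, was called higher as well and is described apart. The median log2 difference was 2.49 over the 9 genes, *Th* included, and -0.06 over all genes.

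*Sp8*, a zinc finger factor needed for periglomerular interneurons, those with calretinin among them, stood at 158.4, 179.6, 169.9 and 215.9 CPM in gated cells of control replicates 1 and 2 and mutant replicates 1 and 2, in that order here and below. In other cells it stood at 3.42, 4.38, 2.64 and 2.96 CPM. The ranges lay far apart in every library, and gated cells were higher by 5.89 on the log2 scale (SE 0.145, edgeR adjusted p = 2.74e-08). *Prokr2* stood at 65.6, 70.4, 76.9 and 124.0 CPM in gated cells and at 2.12, 1.01, 2.28 and 1.60 CPM in other cells. The log2 difference was 5.63 (SE 0.200, edgeR adjusted p = 1.19e-07). After cells were thinned to 4000 UMIs, *Sp8* was found in 43.9% to 50.5% of gated cells of the 4 libraries and in 0.781% to 1.86% of other cells, and in 0.912% of 329 microglia-like cells (median depth before thinning 10716.5 UMIs), which should lack it. *Prokr2* was found in 22.2% to 31.5% of gated cells, and in 0.413% to 0.781% of other cells, and stood at 2.26 CPM over the microglia-like cells. Without thinning, the shares of gated cells were 59.6% to 62.9% for *Sp8* and 28.5% to 36.3% for *Prokr2*.

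*Meis2* and *Pbx3* encode TALE homeodomain proteins that bind DNA together. *Meis2* stood at 2416, 1379, 2537 and 1818 CPM in gated cells and at 635.4, 237.9, 561.3 and 252.8 CPM in other cells. Gated cells were higher in each library, by 2.49 on the log2 scale (SE 0.116). *Pbx3* stood at 606.1, 201.7, 552.7 and 309.5 CPM in gated cells and at 78.2, 22.1, 66.9 and 26.3 CPM in other cells, a log2 difference of 3.30 (SE 0.0857). Both genes were lower in the libraries numbered 2 on either side of the gate, while the difference across the gate held within each library. *Meis2* was found in 88.9% to 95.8% of thinned gated cells and in 46.4% to 66.8% of other cells, so that its presence alone did not separate them.

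*Etv1*, an ETS factor, stood at 291.3, 253.9, 305.8 and 332.8 CPM in gated cells and at 62.8, 71.2, 67.2 and 72.1 CPM in other cells, a log2 difference of 2.24 (SE 0.0902). *Tshz1*, a zinc finger factor needed for neuroblasts to spread within the bulb, stood at 241.1, 211.4, 256.8 and 365.0 CPM in gated cells and at 77.0, 60.0, 88.1 and 75.6 CPM in other cells, a log2 difference of 1.94 (SE 0.0941). Neither gene's ranges overlapped. *Pax6* stood at 95.8, 139.4, 124.0 and 106.5 CPM in gated cells and at 55.7, 89.1, 66.2 and 67.2 CPM in other cells. It was higher in gated cells of each library, and the log2 difference was 0.88 (SE 0.0834, edgeR adjusted p = 1.71e-05).

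*Calb2* stood at 43.5, 124.3, 44.2 and 95.8 CPM in gated cells and at 54.9, 54.8, 51.9 and 55.6 CPM in other cells. Other cells were nearly level across libraries, whereas gated cells lay below them in both libraries numbered 1 and above them in both numbered 2. The log2 difference over the 4 libraries was 0.45 (SE 0.208, edgeR adjusted p = 0.0826), with -0.34 and -0.23 within the libraries numbered 1 and 1.18 and 0.78 within those numbered 2. In the libraries numbered 1 alone it was -0.10 and in those numbered 2 alone 1.12. *Calb2* passed in 4 of 12 alternative fits. Among them were the edgeR fits without control replicate 1 (adjusted p = 0.0113) and without mutant replicate 1 (0.0374).

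*Th* was almost undetected. It gave 21 UMIs in 14 of the 3952 gated cells and 5 UMIs in 5 of the 13671 other cells, or 0.437, 0.279, 0.613 and 0.649 CPM against 0.0543, 0.0296, 0 and 0.0262 CPM. The pooled ratio of levels was 18.6, with an exact 95% interval of 6.83 to 63.2 that covers counting error only. The fitted log2 difference of 4.14 (SE 0.687, edgeR adjusted p = 0.000574) rests on these few UMIs, and *Th* passed the filter on low counts through its gated sums. The other 8 genes gave at least 252 UMIs in each gated sum.

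**Figure D1:**
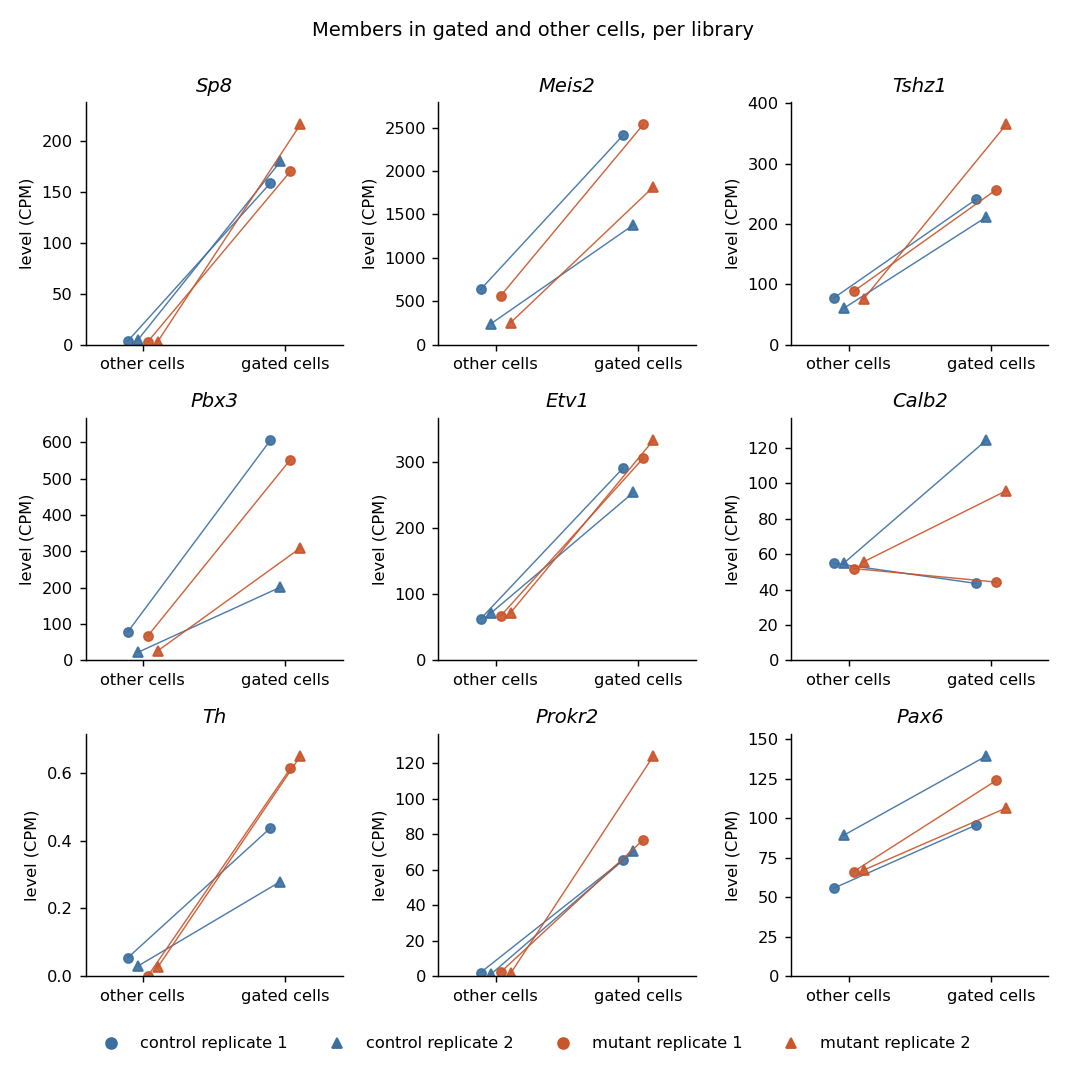
Level of each gene in CPM (linear axes from 0) in other and gated cells, with 1 line per library (blue, control; orange, mutant; circles, replicate 1; triangles, replicate 2). The lines rise in all 4 libraries for each gene but *Calb2*, which rises only in the replicate 2 libraries, and the highest *Th* level is 0.649 CPM.

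Over the 11 cell types with at least 20 cells in each library, the inhibitory neuron-like clusters were first for 7 of the 9 genes. These levels are a description, since types were named from clusters of the same cells, though without the 9 genes. The share of all genes that were first in the inhibitory neuron-like clusters was not counted. *Sp8* averaged 255.7 CPM (SD 40.2, n = 4 libraries) in inhibitory neuron-like, 114.1 CPM (SD 14.4) in dividing inhibitory neuron-like and 9.89 CPM (SD 2.98) in excitatory neuron-like cells, with no overlap between neighbours in that order, and the remaining types overlapped one another below. *Etv1* showed the same first types at 384.3 and 225.5 CPM, with oligodendrocyte precursor-like cells next at 120.8 CPM. *Prokr2* averaged 156.2 CPM (SD 36.6) in inhibitory neuron-like cells and no more than 4.59 CPM in any other type, dividing inhibitory neuron-like cells included (3.41 CPM). *Meis2* (2988 CPM, SD 587), *Pbx3* (702.1 CPM, SD 316) and *Tshz1* (423.2 CPM, SD 98.2) were likewise first in inhibitory neuron-like cells without overlap with the next type. For *Tshz1* the next types were dividing oligodendrocyte precursor-like (125.5 CPM) and excitatory neuron-like cells (105.3 CPM), which overlapped dividing inhibitory neuron-like cells (97.97 CPM).

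*Calb2* and *Pax6* were ordered differently. *Calb2* was highest in excitatory neuron-like cells, at 404.9, 566.4, 481.4 and 652.0 CPM, above inhibitory neuron-like cells at 60.7, 308.3, 72.9 and 142.3 CPM in every library. *Calb2* was also among the 10 leading genes of an excitatory neuron-like cluster headed by *Neurod1*, a proneural factor, with *Prox1*. *Pax6* was highest in dividing inhibitory neuron-like cells, at 135.4, 183.1, 176.8 and 130.1 CPM. Dividing astrocyte-like (109.3 CPM), astrocyte-like (108.8 CPM) and inhibitory neuron-like cells (102.3 CPM) followed and overlapped one another. For *Th*, 20 of its UMIs lay in inhibitory neuron-like cells, a mean of 0.936 CPM.

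**Figure D2:**
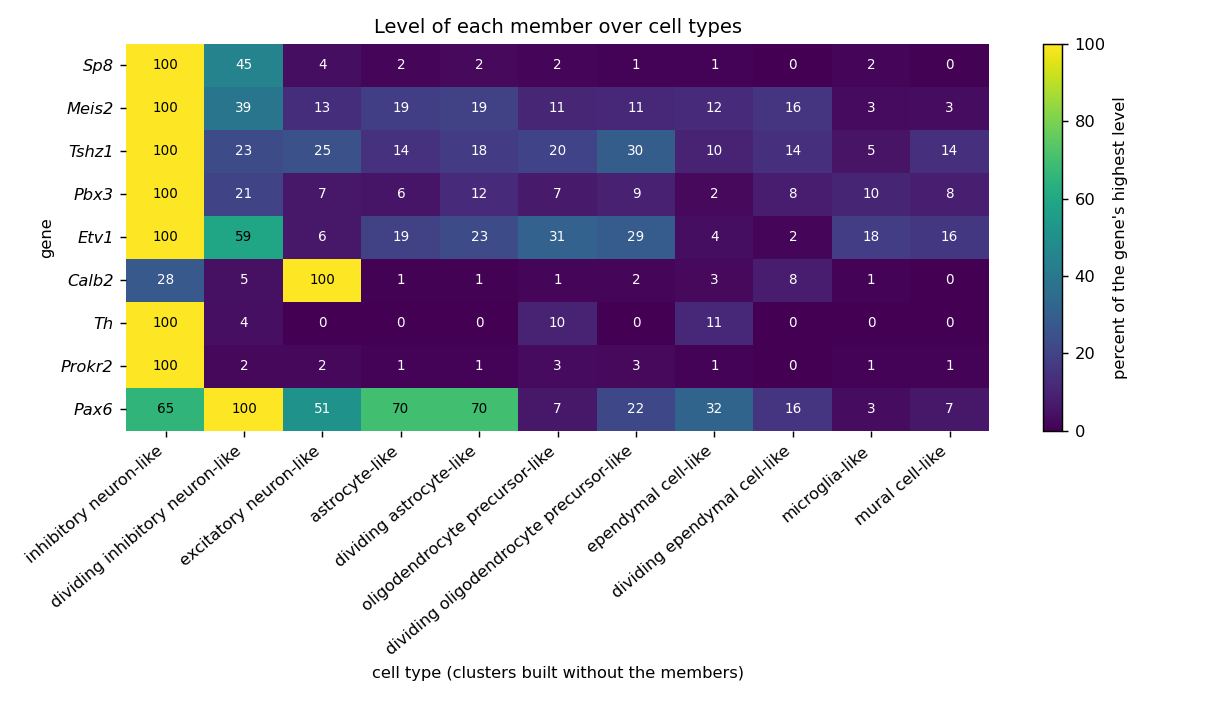
Mean level of each gene over 4 libraries in 11 cell types, as a percent of the gene's own highest type (columns, cell types; rows, genes). *Calb2* peaks in excitatory neuron-like and *Pax6* in dividing inhibitory neuron-like cells, and the other 7 genes peak in inhibitory neuron-like cells.

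Gated cells were then split by division, since neuroblasts of this lineage divide while they migrate. Cells with at least 3 UMIs of *Mki67*, *Top2a*, *Cenpf*, *Hmgb2*, *Ube2c* and *Birc5* (1966 cells) were set against cells with none (776 cells). The remaining gated cells were in neither group. The size of the groups depended on *Hmgb2*. Dividing cells numbered 830, 171, 829 and 136 in the 4 libraries, and 472, 110, 457 and 76 without *Hmgb2*. Non-dividing cells numbered 341, 107, 255 and 73, and 1039, 219, 904 and 194 without it. *Prokr2*, *Pbx3*, *Tshz1* and *Meis2* were much lower in dividing cells, *Calb2*, *Sp8* and *Etv1* were moderately lower, and *Pax6* alone was higher. Of the 8 genes that passed the filter on low counts, 7 were called lower and 1 higher, where 24.3% of 12213 genes were called lower and 26.5% higher. The median log2 difference was -1.11 over the 8 genes and 0.01 over all genes.

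*Prokr2* showed the largest change of the 8 genes tested. It stood at 24.7, 11.0, 31.9 and 44.3 CPM in dividing cells and at 164.9, 261.8, 215.0 and 221.8 CPM in non-dividing cells, and fell by 2.95 on the log2 scale in dividing cells (SE 0.185, edgeR adjusted p = 8.81e-11). *Tshz1* stood at 155.6, 131.1, 171.2 and 159.5 CPM in dividing cells and at 463.1, 516.3, 497.7 and 667.9 CPM in non-dividing cells, a log2 difference of -1.79 (SE 0.111). For both genes, the highest dividing library lay well under the lowest non-dividing one. *Pbx3* stood at 345.0, 90.3, 338.1 and 129.0 CPM against 1409, 529.1, 1224 and 565.3 CPM, a log2 difference of -2.14 (SE 0.118). *Meis2* stood at 1876, 809.4, 2011 and 1138 CPM against 3632, 2944, 4234 and 2882 CPM, a log2 difference of -1.33 (SE 0.132). Both were lower in dividing cells of each library, and the libraries numbered 2 lay below those numbered 1 on either side.

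*Sp8* stood at 132.6, 128.8, 147.8 and 151.7 CPM in dividing cells and at 188.6, 287.4, 217.0 and 291.0 CPM in non-dividing cells, a log2 difference of -0.78 (SE 0.115). *Etv1* stood at 252.5, 210.4, 266.5 and 260.3 CPM against 336.4, 375.3, 418.7 and 460.4 CPM, a log2 difference of -0.69 (SE 0.105). Both were lower in dividing cells of each library without overlap of the ranges. *Calb2* stood at 31.5, 100.4, 33.6 and 47.1 CPM against 45.8, 115.3, 58.9 and 207.5 CPM, and its ranges overlapped, although each library moved the same way (log2 difference -0.89, SE 0.195, edgeR adjusted p = 0.000749).

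*Pax6* stood at 105.9, 145.7, 136.7 and 103.0 CPM in dividing cells and at 67.4, 124.5, 86.4 and 126.4 CPM in non-dividing cells. It was higher in dividing cells of 3 libraries and lower in those of mutant replicate 2. The log2 difference of 0.37 (SE 0.135, edgeR adjusted p = 0.0278) was lost with DESeq2 (adjusted p = 0.302), with a gate of 2 UMIs (0.0842) and without control replicate 1 (0.275) or mutant replicate 1 (0.475), and it was -0.045 in the libraries numbered 2 alone. *Th* was not tested. Dividing cells were also deeper (median 10751 to 13363 UMIs against 4882 to 5672) and held more astrocyte marker counts (1163 to 2260 against 410.0 to 1240 CPM) and fewer inhibitory neuron marker counts (2577 to 3317 against 4126 to 4208 CPM). The part of these in the differences was not tested.

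**Figure D3:**
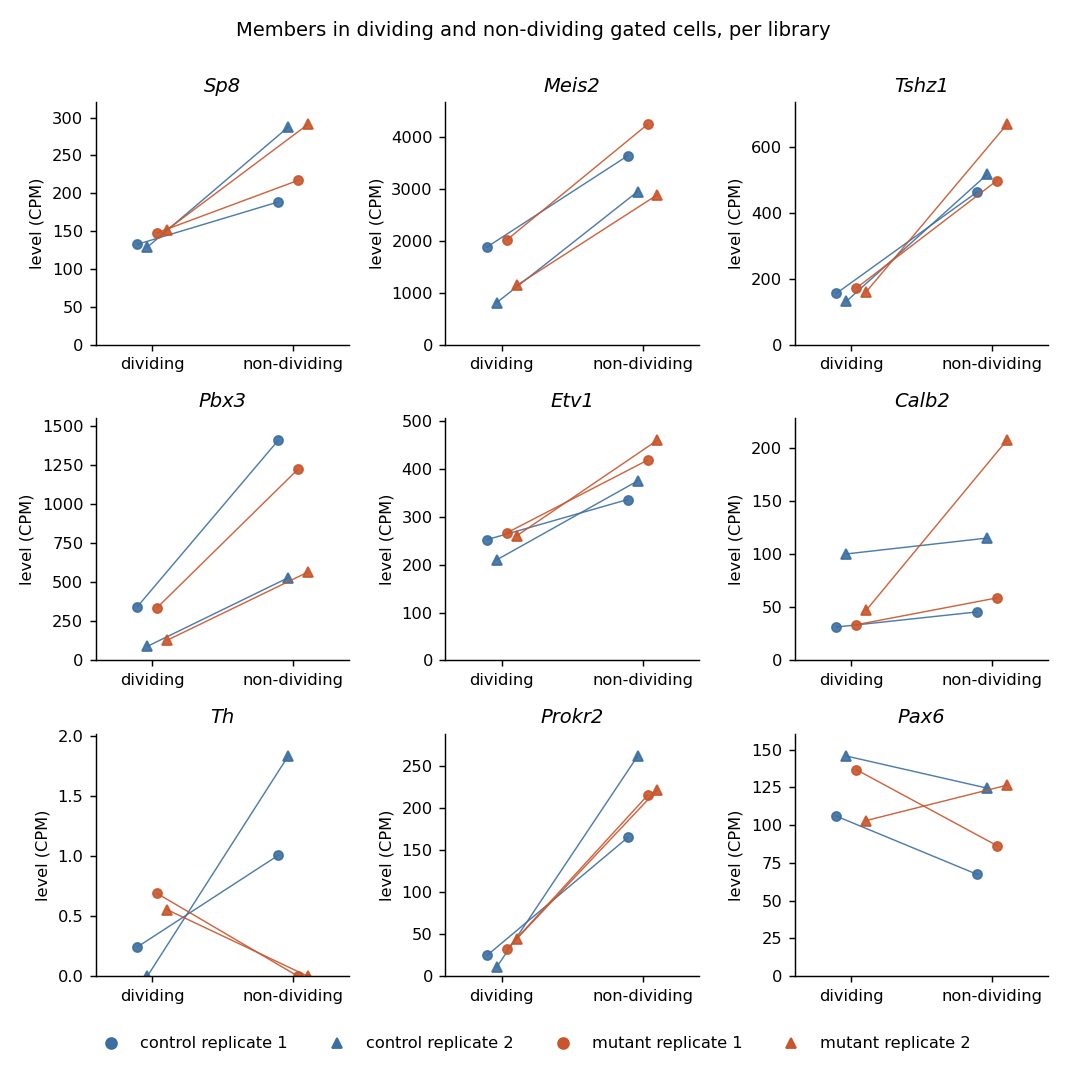
Level of each gene in CPM (linear axes from 0) in dividing and non-dividing gated cells, with 1 line per library (blue, control; orange, mutant; circles, replicate 1; triangles, replicate 2). The lines rise towards non-dividing cells in all 4 libraries for 7 genes, and for *Pax6* they fall in 3 libraries and rise in mutant replicate 2.

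Other genes of the pathway, taken from fixed lists, moved in both directions. Of 9 neuroblast migration genes, 8 were called higher in gated cells and 0 lower, against 31.2% and 36.7% of all genes, among them *Dcx*, a microtubule protein of migrating neurons (log2 3.10, SE 0.0892), the guidance receptor *Robo2* (2.68, SE 0.114) and the neuregulin receptor *Erbb4* (2.01, SE 0.0895). *Prok2*, the ligand of *Prokr2*, did not pass the test (-0.49, SE 0.328). Other cells held many glia. Of all kept cells, 5173 were astrocyte-like (174 of them gated) and 1494 excitatory neuron-like (43 gated). Whether the migration genes separate gated cells from other young neurons was not tested. In dividing gated cells, 7 of the 8 tested migration genes were called lower and 0 higher, against 24.3% and 26.5% of all genes, with *Erbb4* at -2.37 (SE 0.124), *Robo1* at -1.97 (SE 0.227) and *Dcx* at -1.25 (SE 0.116). Of 12 further transcription factors of the lineage, 8 were higher in gated cells and 2 lower (*Nr2e1*, -1.23, SE 0.104, and *Sall3*, -0.21, SE 0.0754). In dividing gated cells, 4 of the 12 were called higher, *Gsx2* and *Gsx1* among them, and 3 lower, against 26.5% and 24.3% of all genes. *Nr2e1* (1.89, SE 0.326) and *Sall3* (0.96, SE 0.148) were higher, and *Meis1* (-1.14, SE 0.126) and *Sp9* (-0.43, edgeR adjusted p = 0.00756) were lower. The progenitor factors *Gsx2* and *Gsx1* were also called higher, at 16.6 to 41.0 and 9.41 to 21.1 CPM in dividing cells, but gave only 3 and 1 UMIs in all non-dividing cells, so no fold is given. Both passed the filter on low counts through their dividing sums, so their direction was fixed and their calls add nothing to the count. Of 7 products of mature bulb interneurons, 6 were tested. Of these, *Scgn* and *Trh* passed the filter on low counts through their gated sums, so a call could only be higher. *Slc18a2* (2.75, SE 0.314) and *Synpr* (2.65, SE 0.145) were higher in gated cells, and *Scgn* and *Trh* were also called higher, on only 2 to 11 and 4 to 19 UMIs per gated sum and 1 to 8 and 2 to 13 in other cells, while *Ddc*, the enzyme after tyrosine hydroxylase in dopamine synthesis, did not pass (-0.33, SE 0.289). The medians of the migration and transcription factor lists in gated against other cells were 2.01 and 1.27 on the log2 scale, against -0.06 over all genes.

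The inhibitory neuron-like and dividing inhibitory neuron-like clusters, 7 in all and each mostly of gated cells, held 2734 and 711 of the 3952 gated cells, and the genes divided them into several combinations. Values here are pooled over libraries and are a description. Clusters 0 and 26 were dividing inhibitory neuron-like, and the other 5 were inhibitory neuron-like.

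In the dividing clusters (728 and 180 cells), *Pax6* stood at 151.0 and 181.4 CPM, its highest levels, and *Sp8* at 106.8 and 176.2 CPM. *Prokr2* was low in both, at 3.55 and 7.81 CPM. Cluster 12 (747 cells), led by *Dlx6os1*, *Dlx1as* and *Sp9*, held *Sp8* at 249.9 CPM and *Etv1* at 310.2 CPM, but *Tshz1* at only 121.6 CPM, *Pbx3* at 83.8 CPM and *Prokr2* at 16.7 CPM. *Mki67* or *Top2a* tagged 12.6% of its cells, against 98.8% and 93.3% of the dividing clusters. Clusters 2 (978 cells) and 30 (358 cells) held *Tshz1* at 437.5 and 553.3 CPM, *Pbx3* at 1202 and 526.7 CPM, *Prokr2* at 214.8 and 254.9 CPM and *Etv1* at 524.3 and 520.4 CPM. These 2 clusters were nearly split by replicate number. Cluster 2 had 484 and 472 cells from the control and mutant libraries numbered 1 and 13 and 9 from those numbered 2, and cluster 30 had 0 and 2 against 167 and 189.

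Cluster 23 (377 cells) was led by *Epha6*, *Foxp2*, *Cdh8*, *Bcl11b*, *Syt1*, *Tenm2* and *Rarb*, in that order. Of these, *Foxp2*, *Bcl11b* and *Rarb* are genes of striatal projection neurons. The cluster shared some of the 9 genes and was low in others. *Tshz1* was at 733.8, 542.0, 699.5 and 846.4 CPM in the 4 libraries, and *Meis2* at 4244, 3322, 4583 and 3095 CPM, both at or near their highest among the clusters. *Pbx3* was at 2102, 530.4, 1495 and 586.8 CPM. Cluster 30 held *Pbx3* at 458.3 and 587.5 CPM in control and mutant replicate 2, and cluster 7 at 1580 CPM in mutant replicate 1. Cluster 23 was thus first for *Pbx3* in the pooled values but not in every library. *Sp8* was at 26.8, 29.1, 35.8 and 31.2 CPM, *Etv1* at 45.5, 5.83, 54.6 and 20.8 CPM, and *Pax6* at 14.6, 35.0, 16.9 and 41.5 CPM. High *Meis2*, *Tshz1* and *Pbx3* were therefore found in clusters both with high and with low *Sp8* and *Etv1*. These levels are over all cells of a cluster, and 79.8% of the cells of cluster 23 were gated.

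Cluster 7 (502 cells), led by *Adarb2*, *Grm8* and *C130073E24Rik*, held 11 of the *Th* UMIs (3.70 CPM), with 3, 1, 6 and 1 UMIs in 2, 1, 1 and 1 cells of the 4 libraries. Its pooled *Calb2* level was 218.1 CPM, above cluster 30 at 190.2 CPM, but 293 of the 649 UMIs came from control replicate 2, and without that library cluster 7 was at 129.9 and cluster 30 at 195.7 CPM. *Calb2* in this cluster ran from 46.8 CPM in mutant replicate 2 (16 cells) to 1244 CPM in control replicate 2 (31 cells), against 111.2 and 159.5 CPM in the libraries numbered 1.

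**Figure D4:**
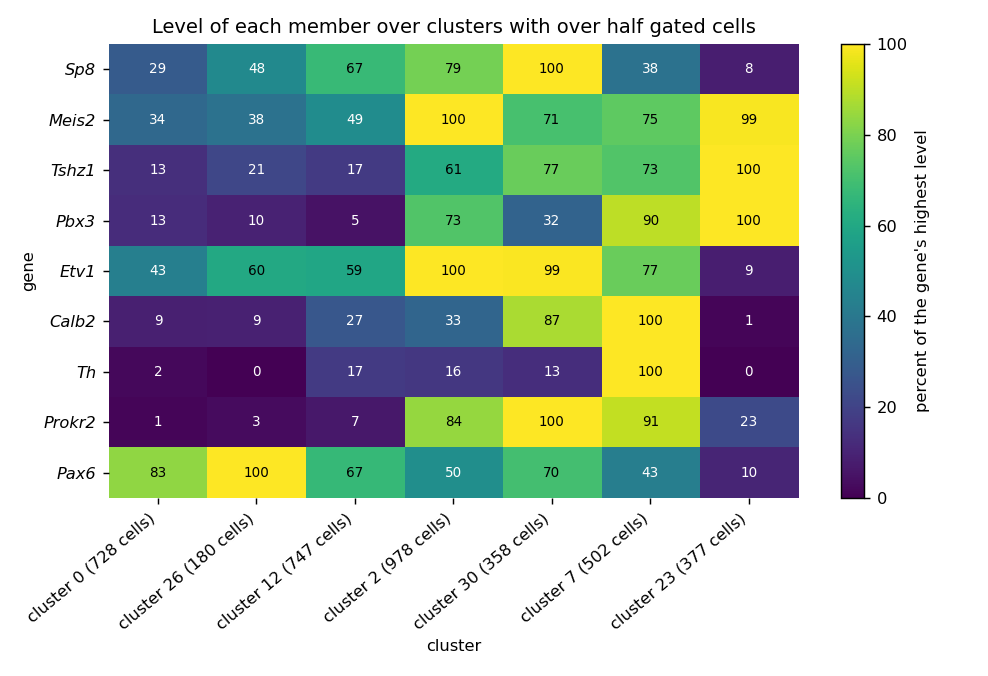
Level of each gene in the 7 clusters in which most cells are gated, pooled over libraries, as a percent of the gene's own highest cluster (columns, clusters with their number of cells; rows, genes). Cluster 23 is at 99.2% for *Meis2* and 100% for *Tshz1* and *Pbx3* but between 1.23% (*Calb2*) and 10.4% (*Pax6*) for *Sp8*, *Etv1*, *Calb2* and *Pax6*, while clusters 0 and 26 are at 83.3% and 100% for *Pax6*. Cluster 30 is almost all from the libraries numbered 2, in which *Pbx3* was lower.

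Gated cells were also sorted by marks of neighbouring inhibitory lineages. Pooled over libraries, 2376 cells carried at least 3 UMIs of a caudal set (*Htr3a*, *Vip*, *Adarb2*, *Npas1* and *Prox1*). A further 1340 carried no mark, 84 a striatal mark, 68 a medial mark and 84 several. By library, the caudal set marked 1131, 132, 990 and 123 cells, and 458, 240, 439 and 203 cells carried no mark. Cells of the caudal set thus outnumbered unmarked cells only in the libraries numbered 1. The marks were set on cells that were not thinned. *Adarb2*, a gene of the caudal set, stood at 1177, 186.8, 1011 and 190.9 CPM in gated cells of the 4 libraries. What this contributed to the counts of marked cells was not tested. The medial cells, with at least 2 UMIs of *Lhx6*, *Sst*, *Nkx2-1*, *Lhx8* and *Npy*, were lower in some of the bulb genes. *Meis2* stood at 416.0, 269.8, 366.0 and 324.8 CPM and *Sp8* at 5.51, 42.6, 32.3 and 6.37 CPM in them. In cells of the caudal set, *Meis2* stood at 2914, 1854, 3080 and 2138 CPM and *Sp8* at 192.6, 214.1, 207.8 and 274.5 CPM. The medial and caudal groups did not overlap for either gene, nor for *Tshz1*, *Pbx3* and *Etv1*. They overlapped for *Prokr2* (0 to 145.3 against 91.7 to 193.5 CPM), *Pax6* (30.3 to 165.6 against 93.4 to 135.4 CPM), *Calb2* and *Th*. The share of all genes without such overlap was not counted. Unmarked cells also lay above the medial cells, with *Meis2* at 1278 to 1794 CPM and *Sp8* at no less than 121.1 CPM. Cells with a striatal mark (4 to 40 per library) held *Meis2* at 1569 to 2820 CPM, but *Sp8* at 0 to 121.95 CPM. Levels of *Meis2* and *Sp8* above the medial cells were thus not particular to the caudal set. The medial cells numbered 10 to 30 per library, and the caudal set is named for its markers, of which *Adarb2* and *Htr3a* are also expressed by the bulb lineage.

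Within thinned gated cells, some pairs of genes were found in the same cells more often than others. Shares of pairs are pooled over libraries, and most of these cells came from the libraries numbered 1 (1489 and 1373 cells, against 361 and 295). *Etv1* was found in 71.9% of the cells with *Sp8* and in 43.3% of those without, a difference of 24.2 to 43.5 percentage points in the 4 libraries. *Tshz1* was found in 81.9% of cells with *Prokr2* and 42.0% of those without, and *Pbx3* in 78.8% against 37.1%. These differences ran from 37.4 to 49.2 and from 40.2 to 43.8 percentage points in the 4 libraries. *Pbx3* and *Tshz1* went together as well, with *Pbx3* in 62.3% of cells with *Tshz1* and 31.1% of cells without (27.9 to 46.6 percentage points by library). For *Sp8* and *Pbx3* the direction differed among libraries. *Pbx3* was found in 47.7% of all cells with *Sp8* and 46.8% of those without, but the difference ran from -3.37 percentage points in control replicate 1 to 13.4 in control replicate 2. *Pbx3* was found less in cells with *Calb2* (32.3% against 49.1%), in each library, and *Pax6* less in cells with *Pbx3* (22.5% against 33.2%), also in each library. At least 4 of the 9 genes were found in 48.8%, 51.0%, 54.1% and 55.6% of thinned gated cells. These are shares of cells from libraries that mix dividing and non-dividing cells, and carry no test.

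The genes with the most similar levels over 44 points (11 types in 4 libraries, Pearson's r of log2(CPM + 10) over 11829 genes) were *Gm14204* (0.979) and *Dlx5* (0.976) for *Sp8*, and *Htr3a* (0.974) and *Gm27032* (0.965) for *Prokr2*. For *Pbx3* they were *Adarb2* (0.877) and *Gad2* (0.854), for *Tshz1* *Zfp821* (0.893) and *Flrt2* (0.888), and for *Meis2* *G630016G05Rik* (0.895) and *Pou2f1* (0.869). For *Etv1* they were *Prkd3* (0.870) and *Sept6* (0.848), for *Calb2* *Nyap1* (0.918) and *Cntn2* (0.913), for *Pax6* *Msi1* (0.860) and *Fzd2* (0.843), and for *Th*, near 0 in all types, *Prokr2* (0.917) and *Htr3a* (0.900). The points of a library share its depth, and *Dlx5* and *Gad2* are genes of the gate.

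Control and mutant gated cells were compared to ask whether the *Chd8* mutation moved these genes. No member passed the test in either direction. Of the 8 genes tested, 0 were called, as were 0% of the 14959 genes tested in gated cells (edgeR, 10 at an unadjusted p under 0.05; 0 with DESeq2 as well), and adjusted p was 0.9999 for each of the 8. With 2 libraries per genotype that differ by replicate number, the intervals were wide, and a miss of the threshold does not show equal levels.

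*Prokr2* and *Tshz1* gave the largest differences, both in the direction of higher levels in the mutants. *Prokr2* was higher by 0.55 on the log2 scale (SE 0.304, 95% interval -0.27 to 1.37), with 0.23 between the libraries numbered 1 and 0.82 between those numbered 2. *Tshz1* was higher by 0.44 (SE 0.271, 95% interval -0.29 to 1.18), with 0.09 and 0.79. For both genes and for *Etv1* (0.22, SE 0.228, within pairs 0.07 and 0.39), both mutant libraries lay above both controls, a pattern of 6.8% of all genes, against 6.1% for the reverse. Mutant replicate 2 was the highest library for each of the 3 genes. *Meis2* (0.19, SE 0.396, within pairs 0.07 and 0.40) and *Sp8* (0.18, SE 0.238, within pairs 0.10 and 0.27) differed upward in both pairs with overlap between the genotypes. In dividing gated cells alone, *Prokr2*, *Tshz1* and *Etv1* were again higher in both mutant libraries. In non-dividing ones only *Etv1* was. There, controls and mutants overlapped for *Prokr2* (164.9 and 261.8 against 215.0 and 221.8 CPM) and *Tshz1* (463.1 and 516.3 against 497.7 and 667.9 CPM). The share of all genes with the pattern in these groups was not counted.

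*Pbx3* (0.08, SE 0.662), *Pax6* (-0.02, SE 0.292) and *Calb2* (-0.27, SE 0.644) changed sign between the pairs, at -0.13 and 0.62, 0.37 and -0.39, and 0.02 and -0.38. *Th* had too few counts to be tested, with 8 and 1 UMIs in the controls and 10 and 2 in the mutants. The mutant less control shares of thinned gated cells with a UMI ran from -3.19 percentage points for *Pax6* to 6.02 for *Tshz1*, with *Prokr2* at 5.47. Exact permutation p was 0.333, the smallest possible, or 0.667. Unlike its level, the share for *Pbx3* was higher in both mutant libraries (49.5% and 47.5%) than in both controls (46.6% and 41.0%), by 4.69 percentage points. How many of all genes show this was not counted.

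**Figure D5:**
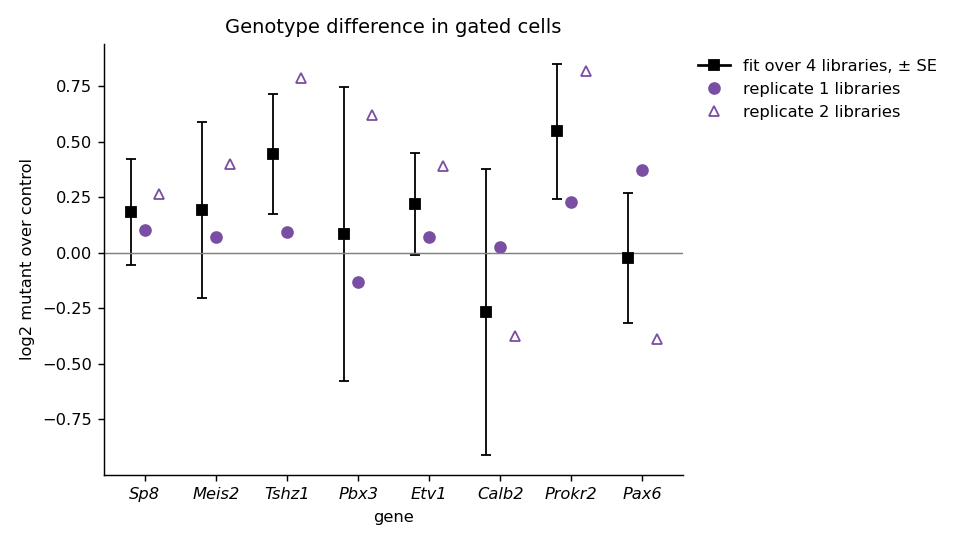
Difference of mutant from control gated cells on the log2 scale for the 8 genes tested, with squares for the fit over 4 libraries (bars, 1 SE) and purple circles and triangles for the libraries numbered 1 and 2. The bars of all genes but *Prokr2* and *Tshz1* reach 0, and triangles lie above circles for 6 genes.

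In other cells 0% of 19328 genes were called between genotypes (edgeR, 17 at an unadjusted p under 0.05), with *Sp8* at -0.49 (SE 0.407) and the other 7 tested members between -0.14 and 0.31. The difference of the genotype effect between gated and other cells was called for 0% of 18733 genes (edgeR, 351 at an unadjusted p under 0.05; 1 gene with DESeq2). For *Sp8* this difference was 0.65 (SE 0.179, 95% interval 0.25 to 1.05, unadjusted p = 0.00491, edgeR adjusted p = 1), from levels in other cells of 2.64 to 4.38 CPM. For the other members tested it lay between -0.14 and 0.29, apart from *Th* (2.51, SE 1.53).

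By replicate number, 3 of the genes were called. *Calb2* was higher in gated cells of the libraries numbered 2 by 1.25 on the log2 scale (SE 0.154, edgeR adjusted p = 8.16e-05), *Pbx3* fell by 1.28 (SE 0.174, adjusted p = 0.00018) and *Meis2* fell by 0.71 (SE 0.133, adjusted p = 0.00166). Of the 8 genes tested, 1 was called higher and 2 lower, where 12.9% of 14959 genes were called higher and 23.3% lower. With genes placed in 4 equal groups by length of intronic sequence, the median difference went from 0.32 in the group with the least to -0.93 in the group with the most. *Pbx3* and *Meis2* lay in the group with the most, and so did *Etv1* (-0.10, SE 0.139) and *Tshz1* (0.10, SE 0.166), which were not called. Whether intronic reads were counted is not given in the sources used here, and software version, sex and replicate number cannot be told apart.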

How the data were processed

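Sorted tdTomato-positive cells of 2 control and 2 mutant libraries, grouped and numbered by the labels, were analysed. The authors prepared them with a 10x Genomics 3′ kit, mapped reads to mm10 with Cell Ranger and deposited raw UMI counts per gene and barcode. File headers name versions 7.0.0 and 5.0.1, and the submitters' processing notes 3.0. The 9 genes and the gene lists were chosen with earlier results of these data known.

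The study's limits on cells were applied (2000 to 40000 UMIs, 1000 or more genes, no more than 10% of UMIs from mitochondria), which kept 79.1% and 79.3% of barcodes in the libraries numbered 1 and 48.7% and 45.1% in those numbered 2. No doublet caller was run. Counts were summed per library and group of cells and tested in edgeR 4.0.16 under R 4.3.3 (TMM, filterByExpr, prior count 0.125, quasi-likelihood F test, Benjamini-Hochberg adjustment over all genes). Comparisons within libraries had the library as a term. The study compared cells by a rank-sum test, which was not used because cells are not replicates. Shares of cells came from cells thinned to 4000 UMIs, which left out 9.01% to 13.7% of gated and 5.72% to 12.9% of other cells per library. Over all libraries, thinning left out 30.0% of non-dividing and 2.64% of dividing gated cells, and 42.4% of cluster 7. Thinned shares, those of pairs included, therefore give dividing cells more weight than they have among all gated cells. Intervals of shares cover counting error only.

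Clusters (scanpy 1.11.5) used 2000 variable genes without 7 of the 9 genes among them, 30 components, 15 neighbours and resolution 1. Of 31 clusters, 28 were named from marker lists by a rule set after the cells had been examined. Positions are from GENCODE vM21, which holds 99.8% of the genes. Named besides the 9 genes are the gate genes, *Chd8*, members of the lists, the 2 genes most like each of the 9 over cell types and, where given, up to 3 genes with the largest called change per test and direction. Values of some list members are not reported here. Leading genes of clusters were chosen after their values were seen. The fits were tested on simulated data. Alternatives were DESeq2 1.42.0, no filter, gates of 2 and 5 UMIs, sums by cluster, a mitochondrial limit of 5%, cells not thinned, a replicate block and each library left out. Fits without *Hmgb2* among the division genes and on libraries of 1 replicate number, and cluster levels without each library, were added after the data were seen.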

Additional observations from a re-analysis of the deposited data

Results flagged for a closer look

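*Sp8* differed between genotypes in opposite directions in gated and other cells. In gated cells the mutant libraries were higher by 0.10 and 0.27 on the log2 scale within the pairs numbered 1 and 2, and in other cells they were lower, by -0.37 and -0.57. The difference between the 2 genotype effects was 0.65 (SE 0.179, edgeR unadjusted p = 0.00491). After adjustment over 18733 genes it did not pass (adjusted p = 1). In other cells *Sp8* was counted 113 to 189 times per library, at 2.64 to 4.38 CPM. Microglia-like cells, which should lack *Sp8*, averaged 4.41 CPM, so the levels in other cells are near the floor. *Sp8* was flagged because its pairs moved in opposite directions, so the unadjusted p rests on the values that selected the gene.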

How the results depend on the processing

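The 7 calls across the gate other than *Th* and the 7 lower calls in dividing cells held in each alternative. *Th* was also called higher where it was tested, which was not so with 5% mitochondrial counts or in the libraries numbered 2 alone. It passed the filter on low counts through its gated sums, so its call adds no support. The cause of the shifts below was not tested. *Calb2* across the gate reversed in the libraries numbered 1 alone (-0.10), and *Pax6* between dividing and non-dividing cells in those numbered 2 alone (-0.045). With DESeq2, a gate of 2 UMIs or the libraries numbered 2 alone, 0 of the 9 genes were higher in dividing cells, and 0 to 1 with a library left out. Genes higher there numbered 2133 to 3173 with a library left out (2133 without mutant replicate 1, against 3238), and with the libraries numbered 2 alone, on fewer samples, 1415 were higher and 1226 lower. Between replicate numbers, DESeq2 called 651 genes higher and 1940 lower, a mitochondrial limit of 5% put 2 of the 9 genes higher (*Sp8* beside *Calb2*), and *Tshz1* was -0.061 with a gate of 2 UMIs. That comparison could not be fitted with a library left out.

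The replicate numbers share no stated batch, so no pairing is assumed, although libraries of 1 number deviated together (r = 0.815 in gated and 0.891 in other cells over genes). With the replicate block, 0 genes were called by genotype in gated cells, 2 in other cells and 63 for the difference between them (*Sp8* among them, 0.64, adjusted p = 0.0438), and *Pax6* in gated cells was 0.010. That difference also gave 1 gene with DESeq2, 44 with no filter, and 0 to 115 with a library left out (115 without control replicate 1, where *Calb2* was -0.87 with adjusted p = 0.0198, 47 without control replicate 2 and 18 without mutant replicate 2). With a gate of 5 UMIs, *Pax6* in it was -0.0031.

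In genotype comparisons with a library left out, log2 differences in gated cells ran from -0.16 to 0.69 for *Meis2*, -0.50 to 1.14 for *Pbx3*, -0.89 to 0.65 for *Calb2* and -0.24 to 0.26 for *Pax6*. In other cells they ran from -0.78 to 0.74 for *Meis2*, -0.92 to 1.04 for *Pbx3*, -0.067 to 0.17 for *Etv1*, -0.10 to 0.021 for *Calb2*, -0.10 to 0.91 for *Prokr2* and -0.45 to 0.28 for *Pax6*. *Calb2* in other cells was 0.014 in the sums by cluster and 0.18 with 5% mitochondrial counts. The differences between the effects ran from -0.094 to 0.46 for *Tshz1*, -0.057 to 0.43 for *Etv1*, -0.87 to 0.55 for *Calb2*, -0.45 to 0.78 for *Prokr2* and -0.13 to 0.28 for *Pax6*. Gated shares moved from -11.2 to 5.03 percentage points, and shares with *Meis2* from -0.70 to 5.75, with *Calb2* from -5.09 to 1.83 and with *Pax6* from -7.50 to 1.13. At 0.28 to 0.65 CPM in gated cells, depth limits every statement on *Th*.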

Other observations

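Lists of neighbouring inhibitory lineages were compared across the same groups of cells. Of 15 striatal projection neuron genes, 10 were called higher in gated cells and 4 lower (edgeR adjusted p under 0.05), where 31.2% of all genes were called higher and 36.7% lower, with a median log2 difference of 0.73 against -0.06 over all genes. *Bcl11b* was higher by 4.24 (SE 0.173) and the dopamine receptor gene *Drd2* by 2.61 (SE 0.279), while *Ikzf1*, *Ppp1r1b*, *Ebf1* and *Tac1* were lower. *Isl1*, a factor of the direct pathway, was also called higher, from 1 to 11 UMIs per library in other cells. *Isl1* and *Drd1*, both among those called higher, passed the filter on low counts through their gated sums. Their direction was therefore fixed, and their calls add nothing to the count. In dividing gated cells, 7 of the 10 striatal genes tested were lower and 0 higher, against 24.3% and 26.5% of all genes, among them *Bcl11b* (-1.28, SE 0.150) and *Rarb* (-3.03, SE 0.226).

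Of 10 medial ganglionic eminence genes, 6 were higher in gated cells and 2 lower, against 31.2% and 36.7% of all genes. *Lhx8*, among the 6, passed the filter on low counts through its gated sums, so its direction was fixed. *Lhx6*, a factor of cortical interneurons from that region, was at 3.86 (SE 0.324) and *Sox6*, also used by oligodendrocyte precursors, at -1.15 (SE 0.0966). In dividing gated cells, 5 were lower and only *Sox6* was higher (1.23, SE 0.127), against 24.3% and 26.5% of all genes. Of 8 caudal ganglionic eminence genes, 3 were higher in gated cells (*Htr3a*, 6.50, SE 0.209; *Adarb2*, 4.87, SE 0.298; *Vip*, on 0 to 19 UMIs per gated sum) and 3 lower (*Npas1*, *Nr2f2* and *Nr2f1*), against 31.2% and 36.7% of all genes, with a median of 0.09. *Vip* passed the filter on low counts through its gated sums, so its call adds nothing to the count. In dividing gated cells *Prox1*, *Nr2f1* and *Nr2f2* were higher by 0.49 to 0.62, and *Adarb2*, *Htr3a* and *Cnr1* were lower. That is 3 of the 7 tested in each direction, against 26.5% and 24.3% of all genes. None of these lists held a gene called between genotypes in gated cells.

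Markers of most other cell types were lower in gated cells. The test called lower 8 of 9 excitatory neuron, 6 of 6 oligodendrocyte precursor, 4 of 4 committed precursor, 5 of 6 tested oligodendrocyte, 6 of 6 ependymal, 5 of 5 choroid plexus, 7 of 7 microglial, 6 of 6 border macrophage, 6 of 6 endothelial, 6 of 6 mural and 5 of 5 fibroblast markers. Summed mural markers ran from 4.32 to 283.5 CPM in gated cells of the 4 libraries, against 186.1 to 1509 CPM in other cells. The 6 division genes were all higher in gated cells (2883 to 3654 against 1253 to 2084 CPM).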
